A study of Homo sapiens with 16 samples.

Results

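The CXC chemokines described here are 8 genes, chosen by symbol: CXCL1, CXCL2, CXCL3, CXCL5, CXCL6, CXCL8, CXCL12 and CXCL16, of 62069 gene identifiers in the count table. Their RNA was followed in 16 bulk RNA-seq libraries made from the IMR90 ER:RAS line. The parent line, IMR90, consists of fibroblasts from human lung. In its ER:RAS form an oncogenic RAS is joined to a piece of the oestrogen receptor and becomes active when 4-hydroxytamoxifen (4OHT) is added, after which the cells enter oncogene-induced senescence. The groups held 4 libraries each. Replicates 57 to 60 carried the short hairpin RNA shAHCY_2 and were given 4OHT, replicates 61 to 64 carried the hairpin shAHCY_4 and were given 4OHT, replicates 53 to 56 carried EV and were given 4OHT (EV_4OHT, labelled senescent), and replicates 49 to 52 carried EV and are labelled non-senescent (EV). Both hairpins are directed at AHCY, the enzyme that breaks down S-adenosylhomocysteine, which is left over when S-adenosylmethionine gives up its methyl group. All groups are of the same line at passage 15 and day 6, and 4OHT was used at 100 nM. No hairpin library without 4OHT and no hairpin against another target was analysed here, nor was any library of cells without the fusion given 4OHT, so effects of 4OHT and of RAS cannot be told apart. Whether the libraries of a group come from separate cultures is not stated, so a p-value here reflects only how much these libraries vary, which may be a technical matter.

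CXC chemokines are small secreted proteins named for a pair of cysteines with another residue between them. CXCL1, CXCL2, CXCL3, CXCL5, CXCL6 and CXCL8 act on the receptor CXCR2, some of them also on CXCR1, and draw neutrophils. They carry a short glutamate-leucine-arginine stretch before the pair of cysteines. CXCL12 lacks it, acts on CXCR4 and holds stem and immune cells near stromal cells, and CXCL16 is a membrane-bound ligand of CXCR6 that can be shed. The neutrophil-attracting members are a classic part of the secretory phenotype of senescent fibroblasts, where interleukin-1 signalling, NF-kappa-B and C/EBP-beta are known to drive their transcription.

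The start regions of the neutrophil-attracting members are shown first, because these genes share a short stretch of letters there. In RefSeq promoters of build GRCh38.p14, which run from 250 bases before to 50 bases after each annotated start, 7 of the 8 members matched by symbol, all but CXCL16. The kappa-B letters GGAATTTCC, searched on both strands, were in 6 of these 7 promoters and in 162 of 35116 promoters of the table (0.461%). The 6 are the members on chromosome 4, and in each the match lay on the gene's own strand with its first base 77 to 91 bases before the start. The letters were chosen as those of sites already described for these genes. Their presence in the members is therefore a description and no support for an enrichment. Windows of 49 bases around each match are printed 5′ to 3′ on the gene's strand, with the matched letters in capitals:
CXCL8: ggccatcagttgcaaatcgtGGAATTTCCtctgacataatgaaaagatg
CXCL3: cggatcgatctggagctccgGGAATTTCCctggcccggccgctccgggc
CXCL1: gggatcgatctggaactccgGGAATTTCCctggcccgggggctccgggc
CXCL2: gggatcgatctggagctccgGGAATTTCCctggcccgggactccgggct
CXCL5: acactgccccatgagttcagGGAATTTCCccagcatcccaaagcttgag
CXCL6: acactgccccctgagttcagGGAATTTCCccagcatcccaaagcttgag
The windows lie at chr4:73740458-73740506 for CXCL8, chr4:73869295-73869343 for CXCL1 and chr4:73836569-73836617 for CXCL6 on the plus strand. On the minus strand they lie at chr4:74038739-74038787 for CXCL3, chr4:74099244-74099292 for CXCL2 and chr4:73998739-73998787 for CXCL5. Position by position, the CXCL5 and CXCL6 windows were identical at 48 of 49 bases and the CXCL1 and CXCL3 windows at 45. CXCL2 matched CXCL1 at 41 bases and CXCL3 at 40, while the CXCL8 window matched the others at 18 to 22 bases, the searched letters included. A match is a description of letters and was not tested as a binding site.

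The promoters of CXCL8 and CXCL12 are given whole, because CXCL8 had the highest level of the members that rose and CXCL12 is the member that fell. In CXCL8 (chr4:73740319-73740618, plus strand) the capitals mark TGANTCA, the letters of an AP-1 site, 137 bases before the start, and the kappa-B letters 91 bases before it. CXCL12 is on chromosome 10 (chr10:44385048-44385347, minus strand), and neither of these letters, nor the C/EBP letters TTNNGNAA, occur in its window, so it has no capitals.
CXCL8: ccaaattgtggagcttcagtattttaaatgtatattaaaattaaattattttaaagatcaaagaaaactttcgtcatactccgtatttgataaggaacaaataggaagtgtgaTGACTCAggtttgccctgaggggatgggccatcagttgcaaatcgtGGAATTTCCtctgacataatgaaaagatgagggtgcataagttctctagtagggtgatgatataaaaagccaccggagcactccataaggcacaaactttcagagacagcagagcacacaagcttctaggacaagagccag
CXCL12: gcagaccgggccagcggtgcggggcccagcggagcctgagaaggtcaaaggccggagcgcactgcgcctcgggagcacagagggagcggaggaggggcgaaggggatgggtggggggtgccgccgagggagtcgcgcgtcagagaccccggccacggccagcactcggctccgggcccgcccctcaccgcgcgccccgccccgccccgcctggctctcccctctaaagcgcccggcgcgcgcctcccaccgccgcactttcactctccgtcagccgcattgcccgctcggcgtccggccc
The AP-1 letters were in 1 of the 7 promoters (CXCL8) and in 7.71% of all promoters in the table. The C/EBP letters were in 1 (CXCL2, 188 bases before the start) and in 36.8% of all. No other C/EBP letters were searched, so a promoter without a match, such as that of CXCL8, may still hold such a site. A looser kappa-B pattern, GGG and CC with any 5 bases between them, was in all 7 and also in 58.7% of all promoters. It overlapped the narrow kappa-B match in CXCL1, CXCL2, CXCL3, CXCL5 and CXCL6, and lay elsewhere in CXCL8.

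**Figure D1:**
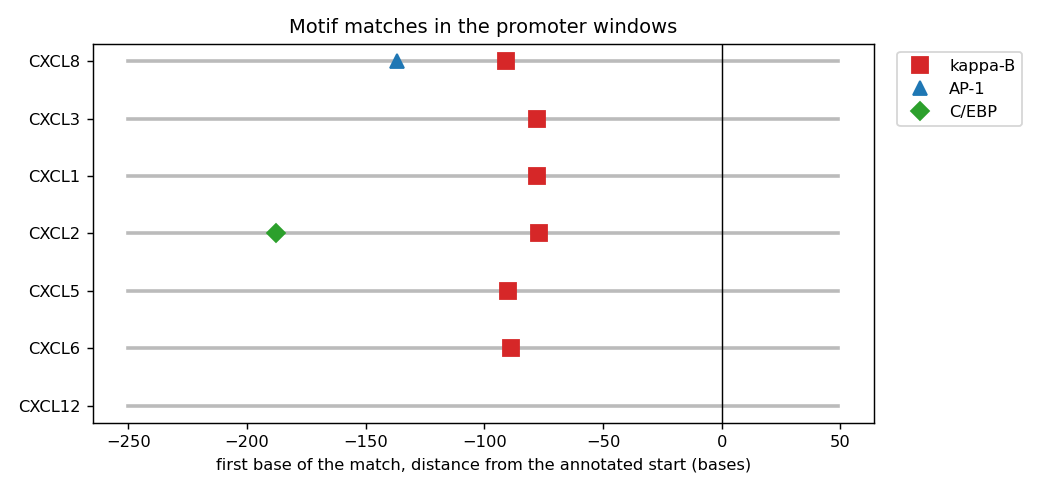
Places of the kappa-B (red squares), AP-1 (blue triangle) and C/EBP (green diamond) letters in the RefSeq promoters of 7 members, as distance in bases of the first matched base from the annotated start (0). The 6 members of chromosome 4 have a kappa-B match between 77 and 91 bases upstream, and CXCL12 has no match of the 3 kinds.

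Depth ran from 8236199 to 18235787 counts per library, and the 24 replicate pairs within groups all differed by more than counting noise, with 3.04 to 32.3 for chi-square per degree of freedom. AHCY, measured first as the target, was at 12.1 to 22.8 CPM (counts brought to one total per library) with shAHCY_2 and at 13.4 to 18 CPM with shAHCY_4, against 154 to 173 CPM in EV_4OHT and 102 to 124 CPM in EV. Both hairpins lowered AHCY against EV_4OHT, by log2 fold changes of -3.14 ± 0.14 (SE) and -3.48 ± 0.14 (adjusted p = 3.54e-13 and 1.03e-13, edgeR's quasi-likelihood test). All 10 fibroblast markers passed the filter on low counts, and their summed level was 5038 to 5540 CPM with shAHCY_2, 4936 to 5583 CPM with shAHCY_4, 4923 to 5109 CPM in EV_4OHT and 10795 to 12456 CPM in EV. Of 10 leukocyte markers 2 passed, with a summed level of 1.87 to 4.23, 2.03 to 3.35 and 2.04 to 3.28 CPM in the 3 groups with 4OHT in the same order and 0.871 to 1.09 CPM in EV, and ITGAM, S100A8 and CD3E were at 0. Of 8 endothelial markers 3 passed, with a summed level of 3.48 to 5.55, 2.81 to 5.03, 4.96 to 7.4 and 6.28 to 7.65 CPM in shAHCY_2, shAHCY_4, EV_4OHT and EV, and PECAM1 and CDH5 were at 0. The endothelial markers went both ways. KDR averaged 0.813 CPM in EV_4OHT and 0.0132 CPM in EV. TEK, the highest of that list, averaged 3.82 CPM in EV_4OHT and 5.74 CPM in EV, and VWF averaged 0.561 and 1.08 CPM. Of 8 epithelial markers 4 passed, with a summed level of 45.2 to 57.2, 45.1 to 54.8, 49.6 to 59.8 and 88.7 to 103 CPM in the same order, and KRT14 and SFTPC were at 0. KRT18 averaged 44.7 CPM in EV_4OHT and 34.1 CPM in EV, and KRT19 averaged 1.44 CPM in EV_4OHT and 50.9 CPM in EV. The part of these markers in the results below was not tested. One library stood apart: shAHCY_2 replicate 59 differed from the rest of its group by a root mean square of 0.499 on the log2 scale, against 0.318 to 0.404 for the other 15, and its GC-rich genes ran lower than in the average library (Spearman's rho across genes between deviation and GC content -0.535, against -0.266 to 0.281 for the others, given as a description since genes are not replicates). For several results, values without it are also given. AHCY was not called between shAHCY_2 and shAHCY_4 (log2 difference 0.34, adjusted p = 0.216 in edgeR's test). It was called without replicate 59 (0.49, adjusted p = 0.0337) and with GC trends removed (0.38, adjusted p = 0.043). With shAHCY_2 against EV_4OHT and without replicate 59, CXCL1 gave -0.90 and CXCL2 gave -0.81, against -0.78 and -0.70 with all libraries.

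CPM were scaled by TMM factors, and a gene was called when the Benjamini-Hochberg adjusted p over 13526 tested genes was under 0.05 in 1 edgeR quasi-likelihood fit to the 16 libraries. Of the 8 members 7 were tested. CXCL16 was below the filter, with 76 counts in all. CXCL1, CXCL2, CXCL3, CXCL5 and CXCL6 had at most 18 counts in any EV library and passed through the libraries with 4OHT, so the counts of calls against EV are a description of these genes and no support for a direction of the family. Ranges without overlap are common over all genes. With shAHCY_2 7.69% of tested genes lay wholly below EV_4OHT and 7.27% wholly above, and with shAHCY_4 11.2% and 12.1%. In EV_4OHT against EV 24% lay wholly below and 24% wholly above. In bulk RNA, fewer cells making a transcript and less transcript per cell cannot be told apart.

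CXCL8 (ENSG00000169429), interleukin-8, had the highest level per transcript length of the 8 in senescent cells. It was at 179, 188, 240 and 202 CPM with shAHCY_2, at 247, 197, 211 and 194 CPM with shAHCY_4, at 320, 334, 348 and 343 CPM in EV_4OHT and at 3.86, 1.84, 3.07 and 3.81 CPM in EV. The 4 EV_4OHT libraries were close together, the 8 hairpin libraries lay below all of them without overlap, and the EV libraries were far below every library with 4OHT. CXCL8 rose in EV_4OHT against EV by 6.73 ± 0.16 on the log2 scale (SE, adjusted p = 2.48e-19 in edgeR's test), a fold change of 106. It fell with shAHCY_2 to 0.601 of the EV_4OHT level (log2 fold change -0.73 ± 0.11, adjusted p = 0.000144) and with shAHCY_4 to 0.631 (-0.66 ± 0.11, adjusted p = 0.000253). Without replicate 59 the shAHCY_2 value was -0.83.

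CXCL3 (ENSG00000163734), CXCL1 (ENSG00000163739) and CXCL2 (ENSG00000081041) form the GRO (growth-regulated oncogene) subgroup of neutrophil attractants, also known as growth factors of melanoma cells. CXCL3 was at 24.2, 29.1, 27.3 and 34.6 CPM with shAHCY_2, at 24.7, 25.1, 30.3 and 30.3 CPM with shAHCY_4, at 37.7, 46, 42 and 46.6 CPM in EV_4OHT and at 0.124, 0.0683, 0.634 and 0.184 CPM in EV. Every hairpin library lay below every EV_4OHT library, and the EV libraries held 1 to 12 counts. CXCL3 had the largest log2 fold change of the tested members in EV_4OHT against EV, 7.26 ± 0.25 (adjusted p = 1.56e-16 in edgeR's test), which was 8.29 without EV replicate 51, the EV library with the most CXCL3. Against EV_4OHT it fell by 0.58 ± 0.14 on the log2 scale with shAHCY_2 (adjusted p = 0.0152) and fell by 0.64 ± 0.14 with shAHCY_4 (adjusted p = 0.00426). The shAHCY_2 call was lost when EV_4OHT replicate 54, EV_4OHT replicate 56 or shAHCY_2 replicate 57 was left out (-0.54, -0.53 and -0.50).

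CXCL1 was at 11.9, 10.6, 15.9 and 12.5 CPM with shAHCY_2, at 12.8, 10.6, 19.2 and 12.5 CPM with shAHCY_4, at 17.5, 23, 20 and 26.4 CPM in EV_4OHT and at 0.498, 0.546, 0.793 and 1.11 CPM in EV. The shAHCY_2 libraries lay below all EV_4OHT libraries, while shAHCY_4 replicate 63, at 19.2 CPM, lay above the lowest of them. CXCL1 rose by 4.85 ± 0.25 on the log2 scale in EV_4OHT against EV (adjusted p = 1.53e-13 in edgeR's test). It fell by 0.78 ± 0.18 with shAHCY_2 (adjusted p = 0.00806) and fell by 0.65 ± 0.18 with shAHCY_4 (adjusted p = 0.0153), each against EV_4OHT. The shAHCY_4 call was lost without EV_4OHT replicate 56, shAHCY_4 replicate 62 or shAHCY_4 replicate 64 (-0.55, -0.55 and -0.60).

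CXCL2 was at 5, 5.36, 7.58 and 6.49 CPM with shAHCY_2, at 4.26, 3.03, 5.33 and 4.57 CPM with shAHCY_4, at 8.98, 9.74, 11 and 9.85 CPM in EV_4OHT and at 0.187, 0.0683, 0.159 and 0.307 CPM in EV. No hairpin library reached the lowest EV_4OHT library, and EV held 1 to 5 counts per library. CXCL2 rose by 5.70 ± 0.29 on the log2 scale in EV_4OHT against EV (adjusted p = 1.35e-13 in edgeR's test). Against EV_4OHT it fell by 1.20 ± 0.19 with shAHCY_4 (adjusted p = 0.000115) and fell by 0.70 ± 0.18 with shAHCY_2 (adjusted p = 0.0193). The shAHCY_2 call was lost without EV_4OHT replicate 55, shAHCY_2 replicate 57 or shAHCY_2 replicate 58 (-0.65, -0.62 and -0.64).

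The GRO genes are near copies, and reads from shared stretches may be split between them. Of the 50-base stretches of the longest reference transcript, 5.73% in CXCL1, 9.24% in CXCL2 and 3.02% in CXCL3 also occur in another gene. Their counts were therefore also summed into 1 feature. The sum rose by 5.96 ± 0.19 on the log2 scale in EV_4OHT against EV (adjusted p = 3.74e-17 in edgeR's test), and against EV_4OHT it fell by 0.65 ± 0.13 with shAHCY_2 (adjusted p = 0.00279) and fell by 0.71 ± 0.13 with shAHCY_4 (adjusted p = 0.000707).

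CXCL5 (ENSG00000163735), an attractant first found in epithelial cells, was at 6.48, 5.22, 9.86 and 5.05 CPM with shAHCY_2, at 6.09, 3.35, 4.44 and 3.01 CPM with shAHCY_4, at 8.06, 7.93, 9.77 and 11.2 CPM in EV_4OHT and at 0.373, 0.41, 0.0529 and 0.492 CPM in EV. The shAHCY_4 libraries lay below EV_4OHT, but shAHCY_2 overlapped it through replicate 59. CXCL5 rose by 4.81 ± 0.35 on the log2 scale in EV_4OHT against EV (adjusted p = 1.05e-10 in edgeR's test) and fell by 1.17 ± 0.25 with shAHCY_4 against EV_4OHT (adjusted p = 0.00316). With shAHCY_2 the log2 fold change of CXCL5 was -0.50 (95% interval -1.0 to 0.01, adjusted p = 0.238), and it was -0.74 without replicate 59, still not called.

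CXCL6 (ENSG00000124875), granulocyte chemotactic protein, is a neutrophil attractant whose level was low in each group. It was at 1.3, 1.64, 2.28 and 1.84 CPM with shAHCY_2, at 0, 0.478, 0.814 and 0.457 CPM with shAHCY_4, at 1.33, 2.28, 2.34 and 3.01 CPM in EV_4OHT and at 0, 0.205, 0 and 0.676 CPM in EV. The shAHCY_4 libraries overlapped the EV range, and the shAHCY_2 libraries were within or just below the EV_4OHT range. CXCL6 rose by 3.34 ± 0.61 on the log2 scale in EV_4OHT against EV (adjusted p = 8.37e-05 in edgeR's test), or 5.01 without EV replicate 52, which held 11 of the 14 EV counts, and 4.39 in limma-voom. It fell by 2.23 ± 0.57 with shAHCY_4 against EV_4OHT (adjusted p = 0.0104). With shAHCY_2 its log2 fold change was -0.35 (95% interval -1.34 to 0.64, adjusted p = 0.711). Its exons share 94 bases with the pseudogene PPBPP1 on the same strand in the reference annotation.

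CXCL12 (ENSG00000107562), stromal cell-derived factor, went the other way. It was at 3.33, 1.79, 1.76 and 2.73 CPM with shAHCY_2, at 5.6, 4.94, 2.66 and 3.27 CPM with shAHCY_4, at 1.33, 2.2, 1.54 and 2.03 CPM in EV_4OHT and at 29.4, 23.1, 20.3 and 24.3 CPM in EV. The EV libraries lay above all others, and the shAHCY_4 libraries lay between EV and EV_4OHT without overlap. CXCL12 fell in EV_4OHT to 0.0735 of the EV level (log2 fold change -3.77 ± 0.23, adjusted p = 3.98e-12 in edgeR's test). It rose by 1.17 ± 0.26 on the log2 scale with shAHCY_4 against EV_4OHT (adjusted p = 0.00363), while shAHCY_2 gave 0.44 (95% interval -0.14 to 1.01, adjusted p = 0.375). Summed fibroblast markers were also lower in EV_4OHT than in EV, and 7 of the 10 fell in that comparison, where 26.8% of all genes fell. Their part in the CXCL12 result was not tested.

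CXCL16 (ENSG00000161921) was near the limit of detection in every group. It was at 0.278, 0.501, 0.519 and 0.341 CPM with shAHCY_2, at 0, 0.239, 0.296 and 0.261 CPM with shAHCY_4, at 0.748, 0.393, 0.0669 and 0.15 CPM in EV_4OHT and at 0.498, 0.546, 0.476 and 0.184 CPM in EV. The ranges of the 4 groups overlapped, with 0 to 9 counts per library. In a fit without the filter the log2 difference of EV_4OHT against EV was -0.34, with a 95% interval of -1.66 to 0.98 that covers a large change in either direction. Its exons share 85 bases with MED11 on the opposite strand, which the counts may not separate.

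**Figure D2:**
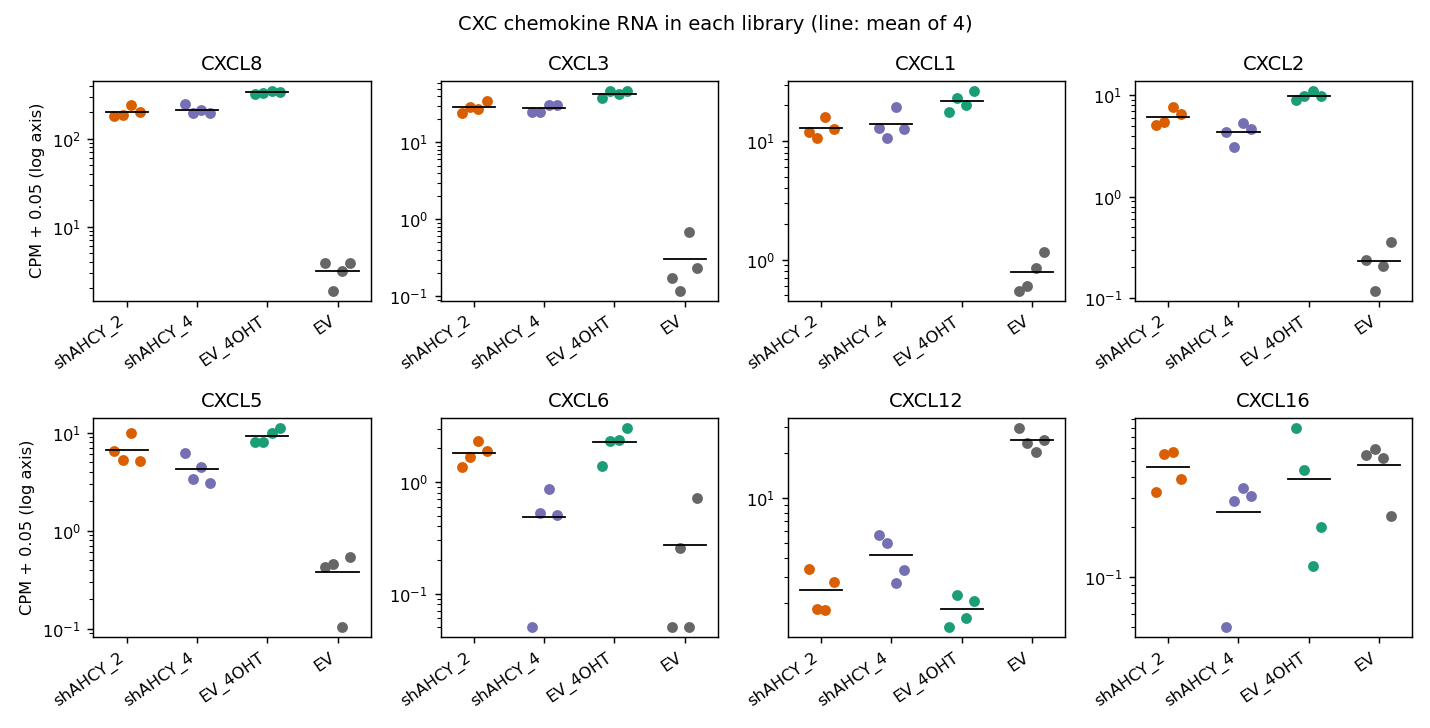
Level of each of the 8 members in each library (points, CPM + 0.05, log axis) by group, with the group mean as a line. The neutrophil attractants are high in the groups with 4OHT and low in EV, CXCL12 is high in EV at 20.3 to 29.4 CPM, and CXCL16 stays under 1 CPM throughout.

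Counted over the 7 tested members, 6 rose and 1 fell in EV_4OHT against EV, where 26.7% of all 13526 genes rose and 26.8% fell. With shAHCY_2 against EV_4OHT 4 fell and 0 rose, where 3.07% of all genes fell and 3.91% rose. No member was higher at an unadjusted p under 0.05 in that test (0 of 7), limma-voom also called 0 of 7 higher, and DESeq2 called 0 of the 6 for which it gave an adjusted p, all but CXCL6. With shAHCY_4 against EV_4OHT 6 fell and 1 rose, where 6.86% of all genes fell and 7.58% rose. The median log2 fold change of the 7 was -0.58 with shAHCY_2 and -0.66 with shAHCY_4, against 0.01 over all genes in both comparisons. The hairpins share the EV_4OHT libraries as their reference, so their values are not independent. Without shAHCY_2 replicate 57 the count with shAHCY_2 was 2, CXCL1 and CXCL8.

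**Figure D3:**
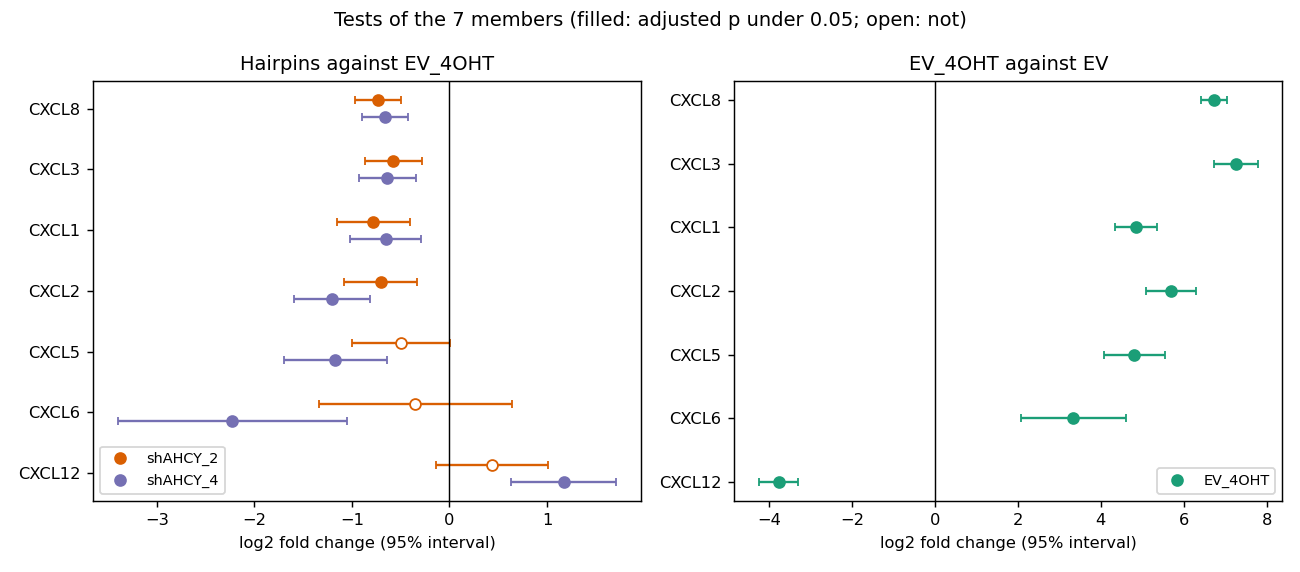
Log2 fold changes with 95% intervals for the 7 tested members, hairpins against EV_4OHT on the left and EV_4OHT against EV on the right; filled points were called at an adjusted p under 0.05. CXCL8, CXCL3, CXCL1 and CXCL2 fell with both hairpins, and CXCL12 is the member on the other side of 0 in both panels.

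Set directly against each other, shAHCY_2 and shAHCY_4 gave no call for any of the 7 (0 called in edgeR's test and in limma-voom), and DESeq2, which gave no adjusted p for CXCL6, called 0 of the other 6. Over all genes 1.24% were called, and 4 of the 7 had an unadjusted p under 0.05. CXCL6 was higher in each shAHCY_2 library than in any shAHCY_4 library (1.3 to 2.28 CPM against 0 to 0.814 CPM), with a log2 difference of 1.87 ± 0.58 that missed the threshold (adjusted p = 0.108 in edgeR's test) and passed it in a fit without the filter on low counts (1.89, adjusted p = 0.00296). Differences for CXCL2 and CXCL5 were 0.50 (95% interval 0.09 to 0.90, adjusted p = 0.186) and 0.67 (0.13 to 1.22, adjusted p = 0.184), and without shAHCY_2 replicate 59 they were 0.39 and 0.44 (adjusted p = 0.441 and 0.495). For CXCL12 it was -0.73 (-1.26 to -0.21, adjusted p = 0.137). CXCL1, CXCL3 and CXCL8 differed by -0.13 (-0.51 to 0.25), 0.06 (-0.24 to 0.36) and -0.07 (-0.30 to 0.16) on the log2 scale. A call with shAHCY_4 and not with shAHCY_2, as for CXCL5, CXCL6 and CXCL12, is therefore not shown to differ between the hairpins.

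Most members were still called against the non-senescent cells with either hairpin. With shAHCY_2 against EV 6 rose and 1 fell, where 24.5% of all genes rose and 23.6% fell, and with shAHCY_4 against EV 5 rose and 1 fell, where 25.4% rose and 25.8% fell. CXCL8 was 63.7 times the EV level with shAHCY_2 (adjusted p = 1.01e-18, edgeR's test) and 66.9 times with shAHCY_4 (adjusted p = 9.64e-19). CXCL6 with shAHCY_4 was the exception, at a log2 fold change of 1.11 ± 0.76 over EV (adjusted p = 0.23), and it was called, at 2.78, when EV replicate 52 was left out. On a linear scale from EV_4OHT (100%) to EV (0%), CXCL8 stood at 59.7% ± 8.07 with shAHCY_2 and 62.8% ± 7.33 with shAHCY_4 (SD, n = 4). CXCL3 stood at 66.7% ± 10.2 and 63.9% ± 7.31, and CXCL1 at 57.1% ± 10.7 and 62.1% ± 17.7. CXCL2 stood at 60.9% ± 12 and 42.3% ± 9.84, CXCL5 at 70.9% ± 25 and 43.6% ± 15.6, and CXCL6 at 76.6% ± 20.4 and 10.7% ± 16.5, none of which was called between the hairpins. Without replicate 59, shAHCY_2 averaged 56% for CXCL8, 52.1% for CXCL1, 55.9% for CXCL2, 58.9% for CXCL5 and 68.1% for CXCL6. CXCL12 stood at 97.2% ± 3.4 and 89.6% ± 6.14, so on this linear scale its rise with shAHCY_4 covered little of the distance back to EV. The log2 scale reads otherwise. There CXCL12 had 1.17 with shAHCY_4 against EV_4OHT and -3.77 in EV_4OHT against EV, and CXCL8 had -0.66 and 6.73. Places of risen and fallen genes on the linear scale are therefore not comparable.

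**Figure D4:**
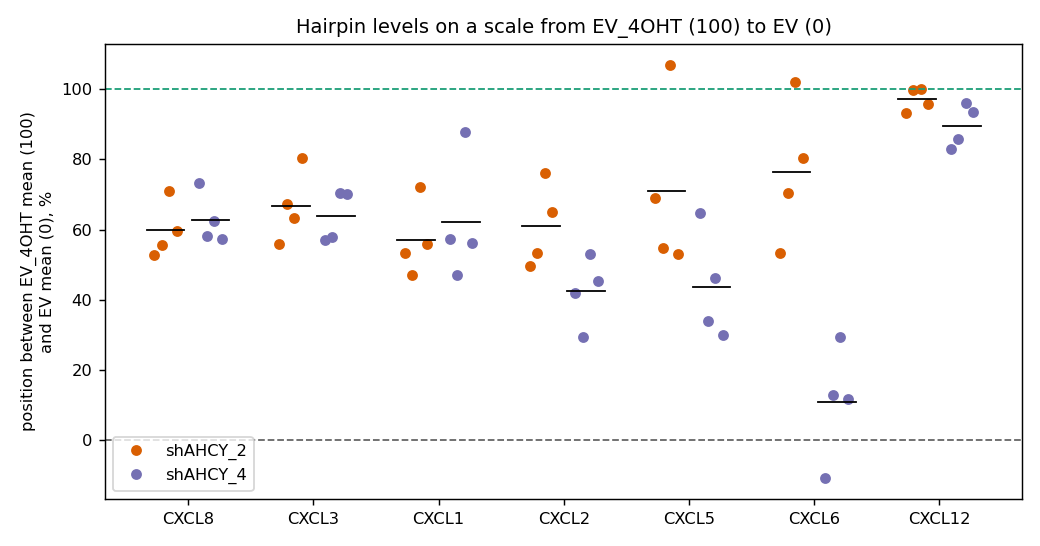
Place of each hairpin library (points, line for the mean) on a linear scale from the EV_4OHT mean (100%) to the EV mean (0%), for the 7 tested members. CXCL8, CXCL3 and CXCL1 average 57.1% to 66.7% with both hairpins, CXCL6 lies at 76.6% with shAHCY_2 and 10.7% with shAHCY_4, and CXCL12 at 97.2% and 89.6%.

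Levels of different genes were compared as CPM per kilobase of the longest reference transcript. In EV_4OHT CXCL8 led with 197 ± 7.16 CPM per kilobase, followed by CXCL3 (26.2 ± 2.52), CXCL1 (19.8 ± 3.5), CXCL2 (8.13 ± 0.702) and CXCL5 (3.64 ± 0.612), then CXCL6, CXCL12 and CXCL16. With the median transcript length CXCL6 ranked above CXCL5 in EV_4OHT, and CXCL12 ranked above CXCL5 with each hairpin. By the longest transcript, the ranges of CXCL3 and CXCL1 overlapped in EV_4OHT and with shAHCY_4, and not with shAHCY_2. In EV the order was CXCL12, CXCL8 and CXCL1, followed by CXCL16, CXCL3, CXCL2, CXCL5 and CXCL6, whose neighbours overlapped. CXCL12 made up 67.9% ± 6.25 of the summed level of the 8 in EV and CXCL8 17.9% ± 3.72 (SD, n = 4). CXCL8 took 75.4% ± 1.06 of the sum with shAHCY_2, 77.5% ± 3.09 with shAHCY_4 and 76.8% ± 1.69 in EV_4OHT. The 8 genes together stood at 258 ± 26.9 CPM with shAHCY_2, 267 ± 25.2 CPM with shAHCY_4, 409 ± 21.5 CPM in EV_4OHT and 30.8 ± 4.59 CPM in EV, here per library total without TMM factors. With shAHCY_4 CXCL12 stood above CXCL6 in the order, without overlap.

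**Figure D5:**
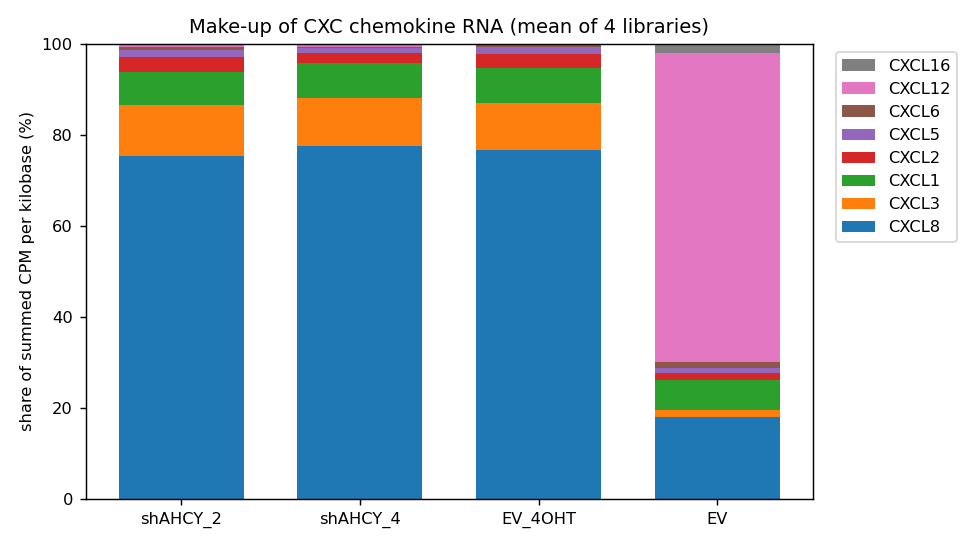
Share of each member in the summed CPM per kilobase of the 8 genes, as the mean of 4 libraries per group. CXCL12 fills 67.9% of the EV bar, and CXCL8 fills 75.4% to 77.5% of the bars with 4OHT.

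Other CXC ligands were scarce. Of 9 on the list (PF4, PF4V1, PPBP, CXCL9, CXCL10, CXCL11, CXCL13, CXCL14 and CXCL17) 2 passed the filter, PF4 and CXCL10. CXCL10, an interferon-induced attractant of T cells, was at 0.925, 0.644, 0.934 and 0.341 CPM with shAHCY_2, at 0.487, 1.43, 0.814 and 0.588 CPM with shAHCY_4, at 1.75, 2.04, 2.41 and 1.73 CPM in EV_4OHT and at 0.0622, 0.478, 0.634 and 0.246 CPM in EV. It was higher in all 4 EV_4OHT libraries than in any other, and rose there against EV by 2.43 ± 0.44 on the log2 scale (adjusted p = 7.58e-05 in edgeR's test). It had at most 12 counts in any EV library and passed the filter through the libraries with 4OHT. Its rise is therefore a description of this gene and no support for a direction of the list. Against EV_4OHT CXCL10 fell by 1.52 ± 0.42 with shAHCY_2 (adjusted p = 0.0309) and fell by 1.23 ± 0.41 with shAHCY_4 (adjusted p = 0.0476). The shAHCY_2 call was lost when replicate 53, 54, 55, 56, 58 or 60 was left out (log2 fold change -1.68 to -1.26 over all libraries left out in turn), and the shAHCY_4 call when replicate 50, 52, 53, 54, 55, 56, 57, 58, 61, 63 or 64 was (-1.62 to -1.06). The shAHCY_4 call was also lost when scaled by library totals alone (-1.17, adjusted p = 0.054) and without the filter on low counts (-1.24, adjusted p = 0.0514). PF4, a platelet chemokine whose gene lies beside PPBP and CXCL5 on chromosome 4, had 45 counts in EV_4OHT and 0 in EV. With 3 counts per group as the floor for EV, that is at least 18.7-fold higher in EV_4OHT. PPBP, another platelet chemokine, had 28 counts in EV_4OHT and 0 in EV.

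Of 10 receptors on the list CXCR4 alone passed the filter. CXCR4, the receptor of CXCL12, had 10, 11, 10 and 8 counts with shAHCY_2, 8, 4, 3 and 6 counts with shAHCY_4, 34, 35, 31 and 28 counts in EV_4OHT and 0 in each EV library. With the same floor it was at least 17.5-fold higher with shAHCY_2, at least 9.3-fold higher with shAHCY_4 and at least 53.1-fold higher in EV_4OHT than in EV. Against EV_4OHT it fell by 1.58 ± 0.36 on the log2 scale with shAHCY_2 (adjusted p = 0.0103 in edgeR's test) and fell by 2.46 ± 0.40 with shAHCY_4 (adjusted p = 0.000305). CXCR4 and its ligand moved in opposite directions in EV_4OHT against EV and with shAHCY_4 against EV_4OHT. PTPRC, a leukocyte marker, had 30, 18, 23 and 0 counts in shAHCY_2, shAHCY_4, EV_4OHT and EV, and its part in the CXCR4 result was not tested. CXCR2, a receptor of the neutrophil attractants, had 13 counts in the 16 libraries, and CXCR1 had 3.

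Of 8 proteases known to cut CXC chemokines 7 were tested, and in EV_4OHT against EV 5 rose and 1 fell (median log2 fold change 1.13), where 26.7% of all genes rose and 26.8% fell. MMP1 and MMP3, matrix metalloproteases, rose by 3.63 ± 0.07 and 7.15 ± 0.18 on the log2 scale (adjusted p = 4.01e-21 and 9.71e-19 in edgeR's test). DPP4, which trims CXCL12, rose by 1.13 ± 0.08 (adjusted p = 1.02e-10), MMP14 rose by 1.24 ± 0.10 (adjusted p = 3.02e-10), and ADAM10, a sheddase of CXCL16, fell by 0.65 ± 0.10 (adjusted p = 7.28e-06). Against EV_4OHT the proteases went both ways with the hairpins: 1 rose and 2 fell with shAHCY_2 (median -0.01), where 3.91% of all genes rose and 3.07% fell, and 2 rose and 1 fell with shAHCY_4 (median -0.12), where 7.58% rose and 6.86% fell. MMP1 was higher with shAHCY_2 (0.27 ± 0.06, adjusted p = 0.00502) and with shAHCY_4 (0.32 ± 0.06, adjusted p = 0.000754) than in EV_4OHT, and MMP3 was higher with shAHCY_4 (0.62 ± 0.14, adjusted p = 0.00318). MMP2 and DPP4 fell with shAHCY_2 (-0.34 ± 0.08 and -0.31 ± 0.08, adjusted p = 0.00773 and 0.0236), and MMP14 fell with shAHCY_4 (-0.31 ± 0.09, adjusted p = 0.0293). The DPP4 call was lost without replicate 53, 56, 57, 58 or 60 (-0.41 to -0.25 over all libraries left out) and the MMP14 call without replicate 53, 54, 55, 61 or 64 (-0.35 to -0.25). DPP4 also missed the threshold with only the 2 groups compared in the fit (-0.30, adjusted p = 0.0711) and MMP14 with library totals (-0.26, adjusted p = 0.0812).

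Inducers and transcription factors of these genes were read from a list of 21, of which 20 were tested. EV_4OHT against EV gave 11 that rose and 2 that fell, where 26.7% of all genes rose and 26.8% fell. The list's median log2 fold change was 0.36, and that of all genes was -0.02. IL1B and IL1A, the interleukin-1 cytokines, rose by 8.86 ± 0.21 and 7.18 ± 0.37 on the log2 scale (adjusted p = 2.48e-19 and 1.9e-13 in edgeR's test), or by 9.97 and 8.71 without EV replicate 52. They had 18 and 5 counts over the 4 EV libraries and passed the filter through the libraries with 4OHT. Their rise is therefore a description of these genes and no support for a direction of the list. NFKBIZ, a nuclear partner of NF-kappa-B, rose by 1.31 ± 0.12 (adjusted p = 6.51e-09) and CEBPB, which encodes C/EBP-beta, by 1.32 ± 0.17 (adjusted p = 1.17e-06).

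With shAHCY_2 against EV_4OHT 3 of the 20 inducers and factors fell and the other 17 were not called (median -0.19), where 3.07% of all genes fell. IL1B fell by 0.69 ± 0.11 on the log2 scale (adjusted p = 0.000351 in edgeR's test), IRAK2, a kinase of the interleukin-1 receptor pathway, by 0.51 ± 0.13 (adjusted p = 0.0174) and NFKBIZ by 0.41 ± 0.12 (adjusted p = 0.0393). The IRAK2 call was lost without replicate 55, 56 or 60 (-0.59 to -0.41 over all libraries left out) and the NFKBIZ call without replicate 54, 55, 56, 57, 58 or 60 (-0.49 to -0.33). NFKBIZ also missed the threshold with library totals (-0.38, adjusted p = 0.0568) and with only the 2 groups compared in the fit (-0.41, adjusted p = 0.0629). With shAHCY_4 1 fell and 19 were not called (median -0.04), a share near the 6.86% of all genes that fell. That gene was CEBPB, at 3.9, 2.79, 3.7 and 3.92 CPM with shAHCY_4 and 5.82, 6.52, 7.3 and 6.62 CPM in EV_4OHT (log2 fold change -0.88 ± 0.17, adjusted p = 0.00135). IL1B was at 79.8, 79, 85.7 and 81.1 CPM with shAHCY_2, at 124, 115, 115 and 111 CPM with shAHCY_4 and at 124, 136, 129 and 135 CPM in EV_4OHT. It was lower with shAHCY_2 than with shAHCY_4 in every library (log2 difference -0.51 ± 0.11, adjusted p = 0.0255 in edgeR's test). That call was lost without any 1 of the 8 hairpin libraries but replicate 59 (-0.54 to -0.48). None of the 7 tested members was called between the hairpins, and a link with IL1B was not tested. IL1A gave -0.55 ± 0.20 with shAHCY_2 and -0.58 ± 0.20 with shAHCY_4 and missed the threshold in both (adjusted p = 0.0945 and 0.0522 in edgeR's test). All hairpin libraries lay below all EV_4OHT libraries, as did 7.69% of all genes with shAHCY_2 and 11.2% with shAHCY_4. DESeq2, limma-voom and a fit with GC trends removed called IL1A lower with both hairpins (DESeq2 -0.56 with shAHCY_2 and -0.58 with shAHCY_4). With shAHCY_4 it was also called with RLE factors, with either other filter on low counts and with only the 2 groups compared in the fit. The shAHCY_4 call was also made when replicate 49, 51, 52, 58 or 59 was left out (-0.66 to -0.45 over all libraries).

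The mRNAs of CXCL1, CXCL2, CXCL3 and CXCL8 are known to hold AU-rich elements, which shorten their life when bound by proteins such as tristetraprolin. All 8 regulators on that list were tested, and in EV_4OHT against EV 2 rose and 4 fell (median log2 fold change -0.24), where 26.7% of all genes rose and 26.8% fell. ZFP36, which encodes tristetraprolin, was at 17, 14.2, 12.9 and 14.1 CPM with shAHCY_2, at 11.6, 13.2, 14.8 and 11.7 CPM with shAHCY_4, at 20.1, 20.2, 22.4 and 20.5 CPM in EV_4OHT and at 32.4, 29, 24.5 and 34.1 CPM in EV. It was thus lower in every hairpin library than in EV_4OHT, and lower in EV_4OHT than in EV. ZFP36 fell by 0.53 ± 0.12 on the log2 scale in EV_4OHT against EV (adjusted p = 0.000581 in edgeR's test), and against EV_4OHT by 0.52 ± 0.12 with shAHCY_2 (adjusted p = 0.00957) and fell by 0.70 ± 0.12 with shAHCY_4 (adjusted p = 0.000438). HNRNPD, another such binding protein, fell in EV_4OHT against EV (-1.23 ± 0.17, adjusted p = 2.31e-06) and was higher with shAHCY_2 than in EV_4OHT (0.62 ± 0.17, adjusted p = 0.0308), a call lost in limma-voom (0.57) and without replicate 53, 54, 55 or 59 (0.41 to 0.69 over all libraries left out, 0.41 without replicate 59). ZFP36L2 averaged 55.5 CPM with shAHCY_2, 48.8 CPM with shAHCY_4, 46.3 CPM in EV_4OHT and 74.6 CPM in EV. Against EV_4OHT 1 gene of the list rose and 1 fell with shAHCY_2 (median 0.10), where 3.91% of all genes rose and 3.07% fell. With shAHCY_4 1 fell and 7 were not called (median 0.05), where 6.86% of all genes fell.

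The genes most like each member over the 16 libraries were those with the smallest root mean square difference between log2 CPM profiles, each centred on its mean in EV, among 8528 genes. For CXCL8 the nearest was TNFSF15, a tumour necrosis factor family cytokine (0.45), then MMP10 (0.58) and BCL2A1 (0.60), and the same 3 genes were nearest to CXCL3 (0.52, 0.59 and 0.84). TNFSF15 was at 25.8 CPM with shAHCY_2, 20.6 CPM with shAHCY_4, 40.4 CPM in EV_4OHT and 0.195 CPM in EV on average. CXCL2 was nearest to PTGS2, the inducible cyclooxygenase (0.36), which averaged 24.8, 24, 41.8 and 1.29 CPM in the same order. CXCL1 was nearest to TFPI2 (0.45), CXCL5 to RPLP0P2 (0.38) and CXCL6 to SEL1L3, at the wider distance of 0.99. CXCL12 was nearest to MEST (0.46) and DCN, the matrix proteoglycan decorin (0.50), which averaged 127 CPM with shAHCY_2, 140 CPM with shAHCY_4, 122 CPM in EV_4OHT and 995 CPM in EV.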

How the data were processed

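Total RNA of 16 libraries was sequenced by Smart-Seq2 with Nextera XT indexing, per the labels' protocols. Per the submitters' processing notes, CASAVA 1.8.2, TopHat2 2.0.11 and featureCounts 1.18.0 were used with hg19 or GRCh37. Which annotation release, strand setting and rule for multi-mapping reads applied is not given in the sources used here. The library method used keeps no strand information. The deposited values are whole-number counts per gene, not normalized, and every line named a gene.

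Symbols came from a supplied name table and transcript lengths from GENCODE 29, by identifier (symbols for 50127 of 62069 matched; the rest held 0.503% of counts), and promoters from RefSeq. Both are of another build than the counts, so coordinates are given only for promoters. Genes were kept by filterByExpr, scaled by TMM and tested in edgeR 4.0.16 (R 4.3.3) with glmQLFit and glmQLFTest, two-sided, in 1 fit to all 16 libraries. The biological coefficient of variation was 11.9%. A standard error is the absolute log2 fold change over the square root of F, and 95% intervals use the t distribution. Depth limits precision most in EV, where 5 members had at most 18 counts per library, and floors of 3 counts cover counting error only. Groups came from sample titles.

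Alternatives were RLE factors, library totals, DESeq2 1.42.0, limma-voom (limma 3.58.1), other filters, only the groups compared, GC trends removed, summed GRO counts and leaving out each library. The test was tried on simulated data. The members, lists and tests were chosen with earlier results of these data known. Named by rule were the 8 members, AHCY and the 3 genes nearest each member. From each list, up to 4 genes per comparison were taken from those with the smallest adjusted p. ADAM10, ZFP36L2, PPBP, CXCR1, CXCR2 and single cell type markers such as PTPRC, KDR, TEK, VWF, KRT18 and KRT19 were added after their values were seen.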

Additional observations from a re-analysis of the deposited data

Results flagged for a closer look

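AHCY in shAHCY_4 replicate 63 stood at 18 CPM, apart from 13.4 to 14 CPM in the other libraries of that group. Its gap to the nearest, divided by the range of the 4, was 0.862, above the 95% critical value of Dixon's test. Chance alone sets apart about 1 in 20 such groups, and 36 were examined. The same library had the highest CXCL1 of its group, 19.2 CPM.

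Among the listed genes other than cell type markers 3 differed between the hairpins. Over all genes 1.24% were called in that comparison and 10.9% had ranges without overlap. Of the 10 fibroblast markers 1 was also called, higher with shAHCY_2. IL1B was lower with shAHCY_2 than with shAHCY_4 by a log2 difference of -0.51 (adjusted p = 0.0255 in edgeR's quasi-likelihood test), with all 4 shAHCY_2 libraries below all 4 shAHCY_4 libraries. ZFP36L1, a relative of tristetraprolin, was lower by -0.34 (adjusted p = 0.0338), and TIA1, an RNA-binding protein of stress granules, was higher by 0.40 (adjusted p = 0.0455), each again without overlap between the groups. The IL1B call was lost without replicate 57, 58, 60, 61, 62, 63 or 64, the ZFP36L1 call when any of 10 libraries was left out (-0.40 to -0.28) and the TIA1 call when any of 14 was (0.33 to 0.44). With only the 2 groups compared in the fit ZFP36L1 (-0.34, adjusted p = 0.0709) and TIA1 (0.40, adjusted p = 0.0759) were not called, and TIA1 was also lost in limma-voom (0.39, adjusted p = 0.0605) and with GC trends removed (0.25, adjusted p = 0.0591).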

How the results depend on the processing

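No paired analysis was possible because the replicate numbers in the titles are not shared between groups. Of 351 log2 fold changes of the members under other settings than leaving out a library, 349 kept their direction and side of the threshold. The exceptions were both between the hairpins: CXCL6 was called without the filter on low counts (1.89, so 1 member higher), and the summed GRO feature, mostly CXCL3 counts, gave 0.06 where CXCL1 alone gave -0.13. DESeq2 gave no adjusted p for CXCL6 with shAHCY_2 against EV_4OHT, with shAHCY_2 against shAHCY_4 or with shAHCY_4 against EV. Leaving out each library in turn kept 659 of 672. For shAHCY_2 against EV_4OHT it gave -0.81 to -0.62 for CXCL2, -0.68 to -0.50 for CXCL3 and 2 to 4 members lower. For shAHCY_4 it gave -0.87 to -0.55 for CXCL1 against EV_4OHT and 0.66 to 2.78 for CXCL6 against EV. Between the hairpins the uncalled values of CXCL1 (-0.24 to 0.09), CXCL3 (-0.05 to 0.13) and CXCL8 (-0.16 to 0.01) crossed 0. Against EV, CXCL3 was 7.72 with shAHCY_2 and 7.66 with shAHCY_4 without EV replicate 51, and CXCL6 with shAHCY_2 was 4.65 without EV replicate 52, against 6.68, 6.62 and 2.99 with all libraries. The same alternatives were run for listed genes after seeing the data: of 35 values named in the text, 23 kept their call under all of them, 11 changed it when a library was left out and 9 under another setting. The cause was not tested.

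Counts over all genes moved more. With GC trends removed 704 genes were lower with shAHCY_2 (415 as reported) and 1540 higher with shAHCY_4 (1025 as reported) against EV_4OHT. With only the 2 groups compared in the fit, 1577 were higher and 1559 lower with shAHCY_4 (928 lower as reported). Between the hairpins 95 higher and 73 lower became 240 and 247 in DESeq2, 430 and 123 without the filter, 47 and 31 with only the 2 groups, and 242 and 377 with GC trends removed. Leaving out 1 library gave 349 to 644 higher and 273 to 512 lower with shAHCY_2, 679 to 1267 higher with shAHCY_4, and 38 to 163 higher and 28 to 165 lower between the hairpins. With library totals in place of TMM, the share of calls that were higher was 69.8% with shAHCY_2, 67.4% with shAHCY_4 and 38.2% for EV_4OHT against EV, where TMM gave 56%, 52.5% and 49.9%, and the median of all genes for EV_4OHT against EV was -0.13 in place of -0.02. With GC trends removed it was 39.1% between the hairpins, where 56.5% was reported. With the median transcript length, 2 members changed rank in shAHCY_2, 2 in shAHCY_4, 2 in EV_4OHT and 5 in EV, and CXCL8 led in each group with 4OHT as before. Without mitochondrially encoded genes the members stood at 437 CPM in EV_4OHT, against 409 CPM with all genes. Depth limits CXCL16, CXCL6 and every member but CXCL8 and CXCL12 in EV.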
